A study of Mus musculus with 6 samples.

Results

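The 71 mouse cytochrome P450 genes described here are the protein-coding genes of the mouse count table whose symbol is Cyp and a number and that had a total of at least 10 counts over 6 libraries. They were chosen by name, gene type and that total, out of 101 protein-coding Cyp genes and 56884 genes of the table. Of the 30 Cyp genes under the minimum, 16 had no count in any library. P450s are haem enzymes that insert an oxygen atom into a substrate. Most sit in the endoplasmic reticulum and receive electrons from P450 oxidoreductase, while a few sit in mitochondria and receive them through ferredoxin. In the liver, families 1 to 3 oxidize drugs, other foreign compounds and steroids, family 4 oxidizes fatty acids and eicosanoids, and families 7, 8, 27 and 39 act on cholesterol and its products to make bile acids. Hepatocytes are the main site of these enzymes, with many members higher around the central vein of the lobule and several set by sex.

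The livers came from male athymic mice (BALB/c, nu/nu; 6 weeks old) that had been implanted with cells of the human hepatocellular carcinoma (HCC) line QGY-7703. After 1 week, an AAV8 vector was given by tail vein, with a control siRNA in the siControl group (labelled WT) or an siRNA against mouse Aatf in the siAATF group (labelled KD), and the mice were followed for 3 weeks. Each group has 3 libraries, whose tissue is given as liver. Both groups thus carried the human cells and a vector with the TBG promoter, which is active in hepatocytes. Whether each library is a single mouse is not stated, so that the p-values measure the spread between these libraries. Mouse genes received 703317, 213022 and 913584 counts in siControl replicates 1 to 3, or 0.778% to 1.93% of all human and mouse counts, and 42563694, 11835898 and 34966245 counts in siAATF, or 97.9% to 99.0%. Which piece of the liver was taken, and how much of the implanted human cells it held, is not given in the sources used here, so that a difference in the piece sampled and an effect of the siRNA cannot be told apart in any comparison of the groups.

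The target of the siRNA, Aatf, was not lower in the libraries labelled siAATF, with 9.63, 2.42 and 12.8 CPM in siControl and 13.3, 22 and 18.9 CPM in siAATF (log2 fold change 0.93, edgeR adjusted p = 0.152), so directions refer to the labels. CPM are mouse counts scaled by TMM and to 1e6 in each library. The makeup of the mouse RNA differed between the groups. Of the hepatocyte markers, 14 of 15 were called higher in siAATF (edgeR adjusted p under 0.05, as for 17.6% of all genes tested), with a summed level of 5845 to 14221 CPM in siControl libraries and 45752 to 189795 CPM in those of siAATF. Of the fibroblast markers, 7 of 8 were called lower (14.4% of all genes), with a sum of 8500 to 12548 CPM against 337 to 532 CPM. Markers were also called lower for 4 of 6 macrophage, 4 of 5 neutrophil, 3 of 6 endothelial and 2 of 5 cholangiocyte genes, and no gene of these 4 lists was called higher. In bulk RNA, a smaller part of hepatocytes among the mouse cells and less P450 RNA per hepatocyte cannot be told apart, and this holds for every comparison of the groups. Among the siAATF libraries, mitochondrial genes took 56.1% of the mouse counts in replicate 2 and 25.7% and 20.8% in replicates 1 and 3, and the acute-phase gene Saa1 had 3011, 7770 and 715563 counts in replicates 1 to 3.

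A promoter motif that was more frequent before P450 genes than before other genes is shown first. The letters TGNACTTTG (N is any base) are the core of sites known to be bound by HNF4A, a nuclear receptor of hepatocytes. On either strand of the 250 bases before the annotated start of each gene's canonical transcript (GRCm39), they were found for 13 of the 71 P450 genes (18.3%) and for 1.19% of all 21770 promoters. Among the 13 are 7 of the 12 Cyp2c genes, which lie on one chromosome and share descent, so that their matches are not independent. The 7 windows are given 5′ to 3′ on the strand of the gene, with the match in capitals, which on this strand is the reverse complement of those letters.
Cyp2c37, chr19:39980785-39980827, plus strand: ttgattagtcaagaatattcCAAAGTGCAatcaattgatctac
Cyp2c50, chr19:40078042-40078084, plus strand: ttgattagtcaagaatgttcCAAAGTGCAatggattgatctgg
Cyp2c54, chr19:40062312-40062354, minus strand: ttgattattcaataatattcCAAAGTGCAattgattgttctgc
Cyp2c40, chr19:39801281-39801323, minus strand: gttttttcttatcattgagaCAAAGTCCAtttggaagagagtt
Cyp2c67, chr19:39637589-39637631, minus strand: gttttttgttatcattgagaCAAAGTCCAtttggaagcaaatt
Cyp2c68, chr19:39729600-39729642, minus strand: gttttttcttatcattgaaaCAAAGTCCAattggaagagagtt
Cyp2c70, chr19:40175772-40175814, minus strand: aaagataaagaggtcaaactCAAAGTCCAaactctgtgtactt
The first 3 windows resemble each other, as do the next 3, and Cyp2c70 stands alone. The match lies 60, 23, 52, 45, 111, 69 and 63 bases before the start, in the order given. The promoter of Cyp8b1, the sterol hydroxylase that makes cholic acid, held 2 matches and a TATA box (TATAAA), which are the capitals here.
Cyp8b1, chr9:121745372-121745621, minus strand: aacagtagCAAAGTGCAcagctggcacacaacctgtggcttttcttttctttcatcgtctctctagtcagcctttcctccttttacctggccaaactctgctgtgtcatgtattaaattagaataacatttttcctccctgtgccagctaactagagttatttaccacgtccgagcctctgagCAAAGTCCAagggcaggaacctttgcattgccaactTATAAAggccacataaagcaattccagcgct
Cyp26a1, which breaks down retinoic acid, held the direct repeat named DR5, an element known to be bound by retinoic acid receptors. It was searched in 1 spelling only, the half-site AGTTCA repeated with 5 bases between, which no other of the 21770 promoters held. Other half-sites were not searched. The repeat covers the last 17 bases before the start, on the minus strand, and overlaps the gene's HNF4 match. The capitals mark the repeat.
Cyp26a1, chr19:37685991-37686240, plus strand: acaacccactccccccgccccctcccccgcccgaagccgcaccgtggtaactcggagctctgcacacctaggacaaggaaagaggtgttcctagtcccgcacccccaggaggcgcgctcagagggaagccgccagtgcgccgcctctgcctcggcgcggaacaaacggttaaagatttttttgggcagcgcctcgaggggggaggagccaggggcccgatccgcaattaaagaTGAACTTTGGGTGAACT
The other genes with an HNF4 match were Cyp2d26, Cyp3a11, Cyp3a44 and Cyp4a10. In the comparison of the groups, 11 of the 13 genes with the match and 34 of the 58 without it were called higher in siAATF, as were 17.6% of all genes tested. Of the 11, Cyp2c37 and Cyp2c54 had no siControl count. The 11 include all 7 Cyp2c genes with the match, which share descent, and Cyp3a44 and Cyp4a10 were not called. Whether the match bears on the calls was not tested. The TATA box was found for 28.2% of the P450 promoters and 11.9% of all, and the C/EBP letters TTGCNNAA for 15.5% and 9.34%. The letters for AhR (TNGCGTG, 4.23% against 4.8%), STAT5 (TTCNNNGAA, 7.04% against 7.7%) and the sterol element (TCACNCCA, 1.41% against 3.43%) were about as frequent as among all promoters or rarer. The repeat DR1, searched only as the half-site AGGTCA repeated with 1 base between, was in no P450 window and in 0.0367% of all promoters. A match is a description of letters and not of binding.

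The libraries labelled siAATF held a larger share of P450 counts. Their share was 0.271%, 0.1% and 0.105% in siControl replicates 1 to 3, from 1909, 213 and 961 counts, and 1.64%, 0.379% and 0.801% in siAATF, from 699280, 44874 and 280113 counts. The lowest siAATF library lay above the highest siControl library. Means (± SD, n = 3) of 0.159% ± 0.0975 in siControl and 0.941% ± 0.643 in siAATF gave a ratio of 5.92, at p = 0.1 in a two-sided exact permutation test, which cannot go lower with 3 against 3. This ratio was 9.17 without siControl replicate 1 and 3.71 without siAATF replicate 1. The 95% Wilson intervals of the siControl shares, which cover counting error only, were 0.260% to 0.284%, 0.0874% to 0.114% and 0.0987% to 0.112%.

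**Figure D1:**
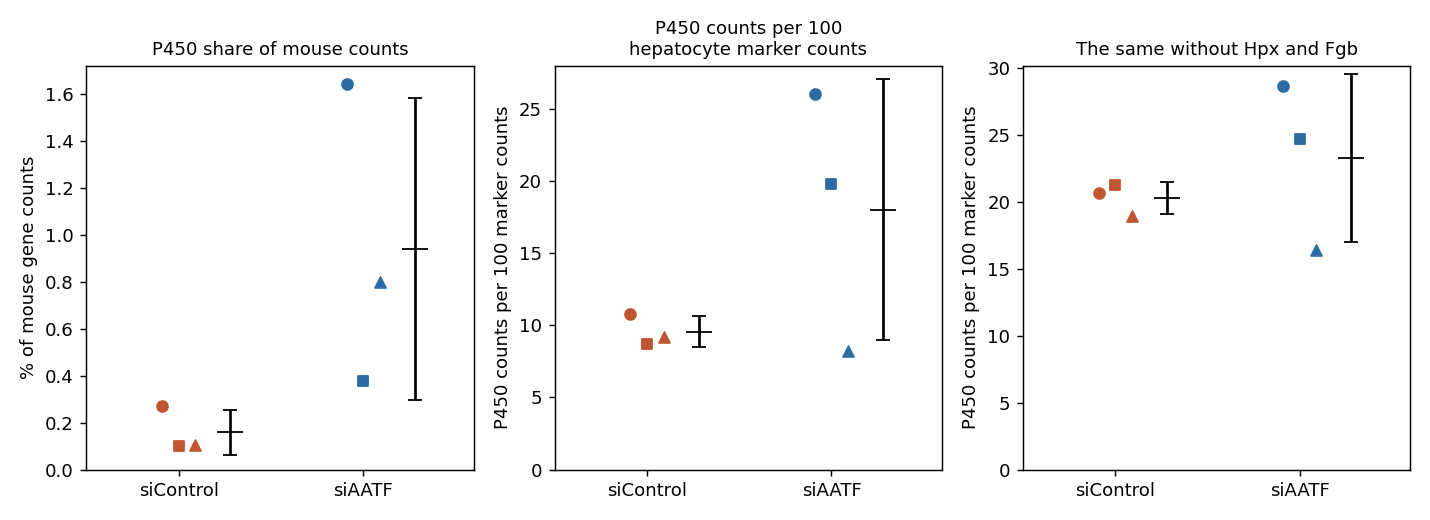
Share of mouse gene counts on P450 genes (left, percent), P450 counts per 100 hepatocyte marker counts (middle) and the same without the markers Hpx and Fgb (right), with 1 point a library (circle, square and triangle for replicates 1, 2 and 3) and the mean with 1 SD beside the points. The groups are apart on the left and overlap in the other panels, where siAATF replicate 3 is the lowest library.

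Relative to other hepatocyte RNA the groups overlapped. P450 genes had 10.8, 8.70 and 9.17 counts per 100 counts on the 15 hepatocyte markers in siControl and 26, 19.8 and 8.19 in siAATF. Replicates 1 and 2 of siAATF were above the siControl libraries and replicate 3 was below them. The means were 9.55 ± 1.09 and 18 ± 9.04 (SD, n = 3 each), a ratio of 1.88 (two-sided exact permutation test, p = 0.4). Among the markers, Hpx and Fgb also rise in the acute-phase response, and Hpx had 132540, 28233 and 1232042 counts in siAATF replicates 1 to 3. Without these markers siControl had 20.7, 21.3 and 19 and siAATF had 28.7, 24.7 and 16.4, a ratio of 1.15 (p = 0.5, same exact test). The ratio was 2.42 without the marker Alb (p = 0.4) and 2.02 with counts divided by gene length (p = 0.2, same exact test for both).

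Gene by gene, 45 of the 71 P450 genes were called higher in siAATF at an edgeR adjusted p under 0.05, 3 were called lower and 23 were not called. The 45 include 5 of 14 members without a siControl count (Cyp2c54, Cyp2c38, Cyp2c37, Cyp3a59 and Cyp2d12), which passed the minimum of 10 counts through siAATF and could thus only be higher there. The other 40 are among the 57 members with a siControl count. Over all 18018 mouse genes tested, 17.6% were called higher, 14.4% were called lower and 32.0% were called in either direction. The groups did not overlap for 56 P450 genes that were higher in siAATF, where 34.5% of all genes did the same, and for 4 that were lower (18.1% of all genes). The 56 include all 14 members without a siControl count, whose direction the minimum fixed, and 42 of the others. The median fitted log2 fold change of the P450 genes was 4.50, beside 0.50 over all genes tested, and without siControl replicate 1 it was 5.92. Fitted values of the 14 depend on the prior count, and the median was 3.25 with each at its lower bound (or at 0 where the siAATF mean lay under the siControl floor).
Depth limits what the siControl libraries can show. They held 3083 P450 counts in all, and 52, 27 and 45 of the 71 genes had a count in replicates 1 to 3, against 71, 70 and 71 in siAATF. Of the members, 14 had no siControl count and passed the minimum through siAATF counts alone, 12 had 1 to 3 siControl counts and 45 had more. A gene at 0 can still reach 3 counts in a library, or 2.41, 7.25 and 1.67 CPM for the siControl libraries and 0.104 to 0.605 CPM for those of siAATF. Among the 34 members with at least 10 siControl counts, 27 were called higher, and among the 26 with at most 3, 10 were.

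**Figure D2:**
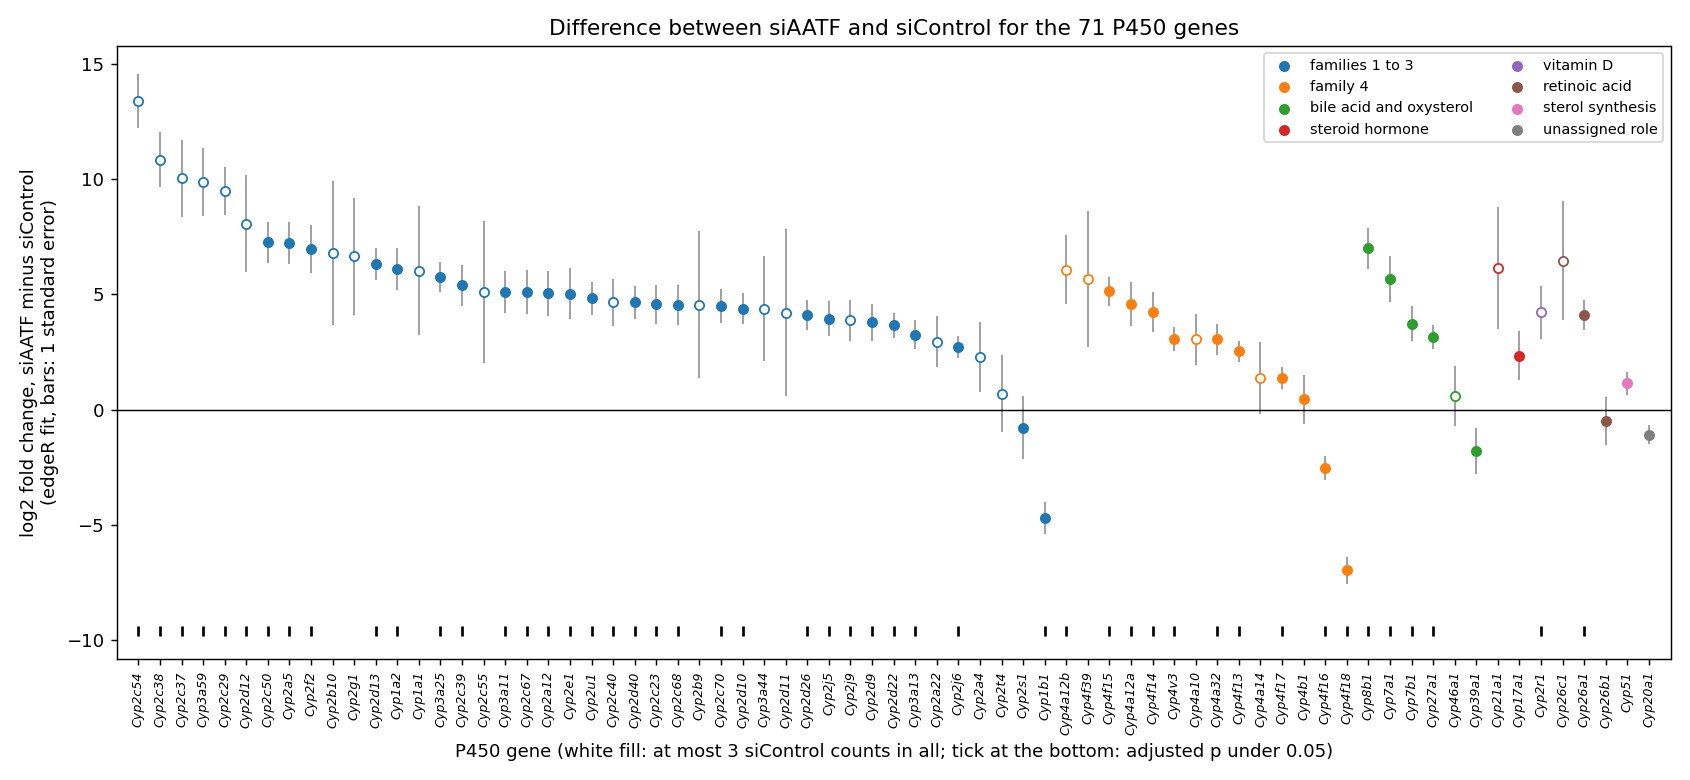
Fitted log2 fold change (siAATF minus siControl, edgeR) with 1 standard error for each of the 71 P450 genes on the horizontal axis, grouped and colored by role, with white points for genes of at most 3 siControl counts and a tick at the bottom for an adjusted p under 0.05. Most members lie above 0, and Cyp4f18, Cyp1b1 and Cyp4f16 are the called members below it. Values of white points depend on the prior count and are not bounds.

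Among the drug and steroid oxidizing families 1 to 3, 31 of 43 members were called higher, 5 of them without a siControl count, and 1 lower (Cyp1b1). Over all genes tested, 17.6% were called higher and 14.4% lower. Cyp2e1, the ethanol and acetone oxidizing enzyme of central-vein hepatocytes, had the highest mean level of the members in both groups, which in siControl rests on replicate 1. Its length-scaled level (RPKM, the TMM-scaled CPM per kilobase of exon) was 183, 11.8 and 27 in siControl and 3786, 771 and 2809 in siAATF. In siControl replicate 2 it lay below Cyp4f18 (39.7 RPKM), Cyp51 (29.5 RPKM), Cyp2d9, Cyp4f16 and Cyp2d26, and in replicate 3 below Cyp51 (28.5 RPKM). Each siControl library nevertheless lay below each siAATF library (log2 fold change 5.03, SE 1.10, edgeR adjusted p = 0.00390). Next in siAATF came Cyp2d9, with 1056, 468 and 858 RPKM there and 129, 22.6 and 18.2 RPKM in siControl (log2 fold change 3.79, SE 0.81, edgeR adjusted p = 0.00333). Cyp2d9 is a testosterone hydroxylase that male mice have more of.
The 8 Cyp2d genes lie on chromosome 15 between 82254728 and 82678495 (GRCm39). Of these, 7 were called higher, beside 17.6% of all genes, and Cyp2d11 was not. One of the 7, Cyp2d12, had no siControl count and 100, 10 and 95 siAATF counts, so that its direction was fixed by the minimum. Cyp2d10 had 51.2, 10.3 and 19 RPKM in siControl and 639, 418 and 670 RPKM in siAATF, and Cyp2d26 had 45.8, 14.2 and 12.5 RPKM against 477, 264 and 528 RPKM. Both groups were well apart for each, with log2 fold changes of 4.39 (SE 0.67) and 4.11 (SE 0.65). Cyp2d13 reached 33.6, 81.9 and 58.3 RPKM in siAATF from 3, 0 and 1 siControl counts (log2 fold change 6.32, SE 0.69).

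**Figure D3:**
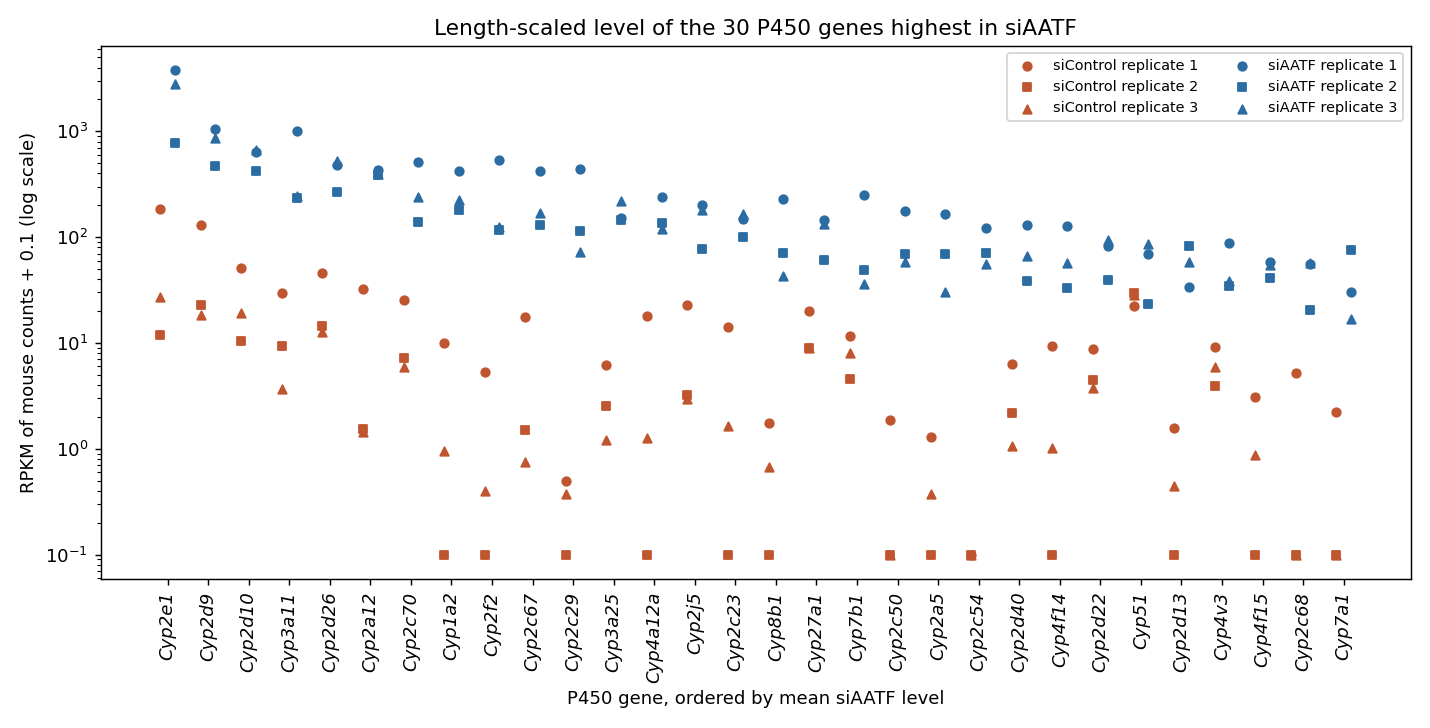
Length-scaled level (RPKM + 0.1, log axis) of the 30 P450 genes that were highest in siAATF, ordered by their mean there, with 1 point a library. Each siAATF library lies above each siControl library for every gene shown except Cyp51, and points at 0.1 are libraries without a count.

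The Cyp2c genes, whose products oxidize drugs and arachidonic acid, lie on chromosome 19 between 38995463 and 44017647. Of these, 11 of 12 were called higher, all but Cyp2c55, beside 17.6% of all genes. The 11 are the 8 with a siControl count and 3 of the 4 without one. No siControl library had a count for Cyp2c54, which had 6287, 624 and 1800 counts in siAATF, and its mean was at least 39.1-fold higher when 3 counts are granted to each siControl library. For Cyp2c38 (707, 95 and 567 counts) and Cyp2c37 (706, 52 and 134 counts), also without a siControl count, the same bounds were 6.62-fold and 3.73-fold, the latter 2.37-fold without siAATF replicate 1. Having no siControl count, these 3 entered the test through siAATF, the group where they are high, and their direction is no result.
Cyp2c29, a central-vein member, had 1, 0 and 1 siControl counts and 25898, 1138 and 2622 siAATF counts. The ratio of the pooled rates was 985, with a 95% interval for counting error of 273 to 8135, and it was 282 without siAATF replicate 1. Cyp2c50 had 4, 0 and 0 counts against 9254, 620 and 1899 (log2 fold change 7.26, SE 0.91, edgeR adjusted p = 0.000117). Its siControl counts are all in replicate 1, and without that library the fitted value was 13.96, set by the prior count. Of the members with more siControl counts, Cyp2c70, which in mice makes muricholic acids, was at 25.3, 7.03 and 5.85 RPKM against 509, 140 and 241 RPKM, and Cyp2c67 was at 17.6, 1.39 and 0.644 RPKM against 421, 130 and 170 RPKM. Their log2 fold changes were 4.50 (SE 0.73) and 5.10 (SE 0.97). Among neighbouring genes the level differed widely, from 0.101 to 0.311 RPKM for Cyp2c55 in siAATF to 140 to 509 RPKM for Cyp2c70.

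In the Cyp3a genes, the main steroid and drug oxidizing enzymes, 4 of 5 were called higher, beside 17.6% of all genes. Of the 4, Cyp3a59 had no siControl count. Cyp3a11 had 29.8, 9.28 and 3.57 RPKM in siControl and 1003, 234 and 242 RPKM in siAATF (log2 fold change 5.10, SE 0.92, edgeR adjusted p = 0.00117). Replicate 1 of siAATF stood far above the others for this gene. Cyp3a59 had 241, 67 and 295 counts in siAATF, at least 3.37-fold higher when 3 counts are granted to each siControl library, and it too entered through siAATF. The member not called was Cyp3a44, which had 1 siControl count in all.
Cyp1a2, the caffeine and aromatic amine oxidizing enzyme, had 24, 0 and 3 counts in siControl and 424, 182 and 225 RPKM in siAATF (log2 fold change 6.10, SE 0.93, edgeR adjusted p = 0.000388). Its relative Cyp1a1, inducible through the aryl hydrocarbon receptor, stayed near the floor with 0 siControl counts and 38, 2 and 14 siAATF counts and was not called. For Cyp2a5, the coumarin hydroxylase, siControl had 3, 0 and 1 counts and siAATF 9562, 696 and 1086 (log2 fold change 7.23, SE 0.89). Cyp2a12 varied least among the siAATF libraries of the members with at least 50 counts there, at 434, 389 and 397 RPKM, against 32.0, 1.44 and 1.33 RPKM in siControl.
Cyp2f2, a naphthalene oxidizing enzyme of portal hepatocytes and airway cells, had 5.16, 0 and 0.299 RPKM in siControl and 535, 117 and 126 RPKM in siAATF (log2 fold change 6.97, SE 1.05, edgeR adjusted p = 0.000354). The 3 Cyp2j genes, which make epoxides of arachidonic acid, were all called higher, led by Cyp2j5 with 22.6, 3.09 and 2.85 RPKM against 203, 77.8 and 179 RPKM. Low members were not called, with Cyp2b10, the phenobarbital-inducible enzyme, at 99, 2 and 7 siAATF counts and Cyp2b9 at 11, 1 and 5, both without a siControl count.

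Cyp1b1, which oxidizes estradiol and is made mainly outside hepatocytes, fell. It had 29, 5 and 86 siControl counts and 60, 1 and 11 siAATF counts, although the siAATF libraries were far deeper, which is 23.3, 12.1 and 48.0 CPM against 2.07, 0.202 and 0.610 CPM. The groups were apart (log2 fold change -4.71, SE 0.69, edgeR adjusted p = 0.000299).
In family 4, 8 of 14 members were called higher and 2 lower, beside 17.6% and 14.4% of all genes. The lower calls are thus near the share of all genes. Cyp4f18, which inactivates leukotriene B4 in myeloid cells, had 28, 28 and 76 siControl counts and 6, 2 and 8 siAATF counts. At 22.5, 67.6 and 42.4 CPM against 0.207, 0.403 and 0.444 CPM it was the largest fall of the P450 genes (log2 fold change -6.97, SE 0.58, edgeR adjusted p = 2.27e-05). Beside it, the neutrophil marker sum was 89.9, 1858 and 1350 CPM in siControl and 2.76, 2.22 and 133 CPM in siAATF, and the part of these cells in the fall was not tested. Cyp4f18 and Cyp1b1 are on the list of genes known mainly from outside hepatocytes.
Cyp4f16 had 15.4, 19.4 and 13.4 RPKM in siControl and 1.88, 0.990 and 5.05 RPKM in siAATF (log2 fold change -2.54, SE 0.53, edgeR adjusted p = 0.00308). It lies between relatives on chromosome 17, in a stretch from 32671697 to 33166376, and 4 of the 6 members there were called higher on the TMM scale, although Cyp4f17 and Cyp4f13 had negative log2 fold changes when scaled by hepatocyte markers (-2.08 and -0.75). Among the 4, Cyp4f15 had 2.96, 0 and 0.772 RPKM against 58.5, 40.6 and 54.9 RPKM, and Cyp4f14 had 9.29, 0 and 0.922 RPKM against 127, 33.2 and 56.8 RPKM.
Of the 5 Cyp4a genes, omega-hydroxylases of fatty acids, Cyp4a12a, Cyp4a12b and Cyp4a32 were called higher. Cyp4a12a was the highest, at 17.9, 0 and 1.15 RPKM in siControl and 242, 137 and 120 RPKM in siAATF (log2 fold change 4.59, SE 0.96). The PPAR alpha targets Cyp4a10 (152, 10 and 135 siAATF counts) and Cyp4a14 (10, 2 and 28 siAATF counts) stayed low and did not pass. Cyp4v3, a fatty acid hydroxylase, had 9.07, 3.81 and 5.86 RPKM against 87.3, 34.6 and 38.8 RPKM (log2 fold change 3.05, SE 0.52).

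Among the enzymes of bile acids and oxysterols, 4 of 6 were called higher on the TMM scale, beside 17.6% of all genes. Scaled by hepatocyte markers, Cyp7a1 and Cyp8b1 stayed called, and Cyp7b1 (0.40) and Cyp27a1 (-0.29) were not called. Cyp7a1, the rate-limiting enzyme of bile acid synthesis, had 11, 0 and 0 counts in siControl and 125, 314 and 69.4 CPM in siAATF (log2 fold change 5.68, SE 1.00, edgeR adjusted p = 0.000976). All of its siControl counts are in replicate 1, without which the fitted value was 13.84, set by the prior count. Cyp8b1, with its 2 HNF4 matches, had 4, 0 and 2 counts against 451, 138 and 83.4 CPM (log2 fold change 7.01, SE 0.89, edgeR adjusted p = 0.000126). Cyp7a1 was highest in siAATF replicate 2 and Cyp8b1 in replicate 1, so that the order of the 3 libraries differed between them.
Cyp27a1, the mitochondrial sterol hydroxylase of the acidic pathway, had 19.9, 8.94 and 8.84 RPKM in siControl and 146, 61.0 and 134 RPKM in siAATF (log2 fold change 3.15, SE 0.52, edgeR adjusted p = 0.000706). Cyp7b1, the oxysterol hydroxylase of that pathway and higher in males, had 11.5, 4.46 and 7.98 RPKM against 248, 48.7 and 36.1 RPKM (log2 fold change 3.73, SE 0.75, 2.38 without siAATF replicate 1). The members not called were Cyp39a1 (2, 0 and 8 against 12, 2 and 22 counts) and the brain cholesterol hydroxylase Cyp46a1 (0, 0 and 2 against 41, 2 and 9 counts).
Cyp51, the lanosterol demethylase of cholesterol synthesis found in nearly all cells, had one of the highest levels in siControl. It had 22.5, 29.5 and 28.5 RPKM there and 69.0, 23.4 and 85.7 RPKM in siAATF. Replicate 2 of siAATF lay among the siControl libraries, and the test was not passed (log2 fold change 1.15, SE 0.50, edgeR adjusted p = 0.0991, and 0.00578 without that library). Cyp20a1, a member of unknown substrate, had 6.14, 10.9 and 7.28 RPKM against 4.55, 2.54 and 3.67 RPKM, without overlap and short of the threshold (log2 fold change -1.09, SE 0.42, edgeR adjusted p = 0.0651).
Cyp26a1, with the retinoic acid repeat before its start, had 1, 0 and 7 siControl counts and 1012, 104 and 998 siAATF counts (log2 fold change 4.09, SE 0.66, edgeR adjusted p = 0.000550). Its relatives Cyp26b1 (1, 0 and 4 against 42, 2 and 14 counts) and Cyp26c1 (none against 34, 8 and 15 counts) were not called. Cyp2r1, the vitamin D 25-hydroxylase, had 0, 0 and 1 counts against 168, 10 and 150 (log2 fold change 4.22, edgeR adjusted p = 0.0138, and 0.0608 without siControl replicate 1; without replicate 3, which holds its siControl count, the fitted value was 8.88). Of the steroid hormone enzymes, the adrenal Cyp21a1 had 31, 5 and 14 siAATF counts and none in siControl, and Cyp17a1 had 4, 0 and 8 counts against 123, 14 and 758, and neither was called.

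Lists of P450 genes by place and sex were compared next. All 8 members of the central-vein list, 7 of them with a siControl count, were called higher (Cyp2e1, Cyp1a2, Cyp3a11, Cyp7a1, Cyp2a5, Cyp2c29, Cyp2c37 and Cyp2c50), with a median log2 fold change of 6.67, or 5.89 with Cyp2c37, which had no siControl count, at its bound. From the portal list, Cyp2f2 and Cyp8b1 were called higher and Cyp17a1 was not. All 4 genes listed as higher in males, Cyp2d9, Cyp7b1, Cyp4a12a and Cyp4a12b, were called higher, with a median of 4.19. Of 11 genes listed as higher in females, 6 were tested and 1, Cyp2c40, was called higher (1, 0 and 0 siControl counts against 284, 23 and 151). Of 12 genes listed as mainly outside hepatocytes, 6 were tested, none was called higher and Cyp4f18 and Cyp1b1 were called lower. These counts stand beside the 17.6% and 14.4% of all genes.

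Within the P450 counts of a library the makeup differed between the groups. These are shares of counts, in which long transcripts weigh more. Cyp2c genes made up 7.96%, 2.82% and 2.81% of the P450 counts in siControl and 14.7%, 13.9% and 10.8% in siAATF. Cyp51 alone took 5.76%, 22.5% and 20.9% in siControl and 1.13%, 1.02% and 2.17% in siAATF, and the Cyp4f genes took 7.02%, 25.8% and 16.1% against 2.20%, 2.80% and 2.20%. None of these 3 shares overlapped between the groups (two-sided exact permutation p = 0.1 for each, the smallest possible). Cyp1b1 was 1.52%, 2.35% and 8.95% of the siControl P450 counts and at most 0.00858% in siAATF. The Cyp2d share, in contrast, was 27.2%, 18.3% and 17.8% against 17%, 24.6% and 25.1%, with the groups overlapping, and the Cyp2e1 share, at 22%, 4.23% and 9.26% against 28.9%, 15.7% and 33.2%, overlapped as well.

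**Figure D4:**
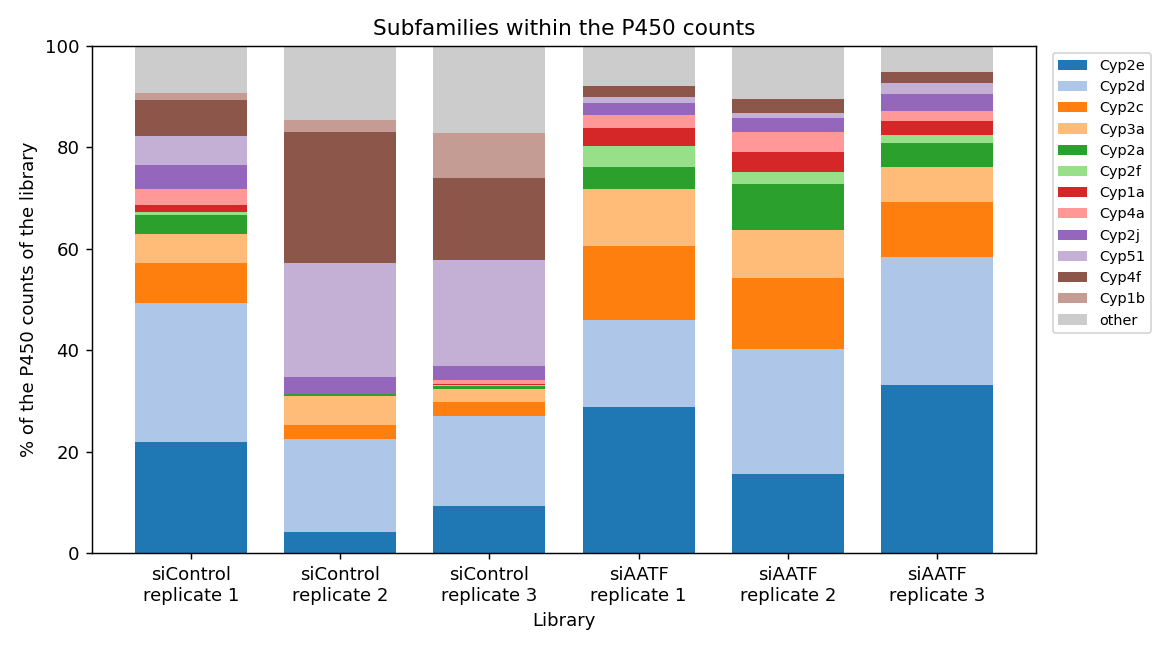
Percent of each library's P450 counts (vertical axis) on 12 subfamilies and on all others, with 1 bar a library. Cyp51, Cyp4f and Cyp1b take more of the bar in siControl replicates 2 and 3 than elsewhere, and siControl replicate 1 lies between those and the siAATF libraries.

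The siControl libraries were not alike. Among the 34 members with at least 10 siControl counts, 26 were highest in replicate 1, 5 in replicate 2 and 3 in replicate 3. The central-vein list summed to 442 CPM in replicate 1 and 43.5 and 60.8 CPM in replicates 2 and 3, and the hepatocyte markers to 14221 CPM against 5911 and 5845 CPM. Without replicate 1, 44 members were called higher. The log2 fold change then rose to 8.21 for Cyp2a12, 8.17 for Cyp2c67, 7.57 for Cyp4a12a and 6.66 for Cyp4f14. It rose to 13.84, 13.96, 10.79 and 9.38 for Cyp7a1, Cyp2c50, Cyp4a12b and Cyp2c40, which then had no siControl count. Across all the other settings, fitted values ran from 3.27 to 10.04 for Cyp2f2, 2.54 to 8.68 for Cyp1a2 and 1.26 to 6.92 for Cyp2e1.

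A second scaling set the hepatocyte markers equal between libraries in place of TMM, an alternative chosen after the data were seen. On it, 16 P450 genes were called higher and 8 lower, where 0.86% of all genes were called higher and 57.3% lower. The median log2 fold change, which here too includes the 14 members without a siControl count, was 1.44 for the P450 genes and -2.87 for all genes. Those that stayed higher were Cyp2c54, Cyp2c38, Cyp2c29, Cyp2c50, Cyp2c67, Cyp2a5, Cyp2a12, Cyp2f2, Cyp8b1, Cyp7a1, Cyp2d13, Cyp1a2, Cyp3a25, Cyp3a11, Cyp4a12a and Cyp2e1, all of which were also called on the TMM scale. For Cyp2f2 the log2 fold change was 4.01 (SE 0.94, edgeR adjusted p = 9.54e-05), for Cyp8b1 3.92 (SE 1.03, edgeR adjusted p = 0.000466) and for Cyp2e1 1.87 (SE 0.76, edgeR adjusted p = 0.0262). Lower were Cyp4f18, Cyp1b1, Cyp4f16, Cyp39a1, Cyp20a1, Cyp2s1, Cyp26b1 and Cyp51, the last at -2.74 (SE 0.80, edgeR adjusted p = 0.00168). Of the 16, Cyp2c54 and Cyp2c38 had no siControl count, so that no scaling could turn them, and the other 14 had the same direction on both scales. Direction turned from higher to lower for 16 other members. Of these, 7 were called higher on the TMM scale and not called here, namely Cyp4f17 (-2.08), Cyp4f13 (-0.75), Cyp2j6 (-0.57), Cyp27a1 (-0.29), Cyp4v3 (-0.28), Cyp3a13 (-0.19) and Cyp4a32 (-0.12). The other 9, Cyp51 among them, were not called on the TMM scale. When Hpx and Fgb were left out of the markers, 12 were higher and 10 lower, and Cyp4f17 was called in the opposite direction to the TMM scale. In that setting 12214 of all 18018 genes were called, 0.843% of them higher.

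The siAATF libraries, deep enough for single genes, differed among themselves more in the median P450 gene than in the median of all genes. The hepatocyte marker sum differed too, at 92833, 45752 and 189795 CPM in replicates 1 to 3, where the P450 sum was 24130, 9051 and 15538 CPM. Whether P450 genes differed more than other hepatocyte genes was not tested. Over the 53 members with a mean of at least 50 siAATF counts, the median coefficient of variation was 52.6%, against 33.7% over the 10635 genes that passed the same minimum (depth above it was not matched), and the median ratio of the highest to the lowest library was 2.77 against 1.94. Replicate 1 was the highest library for 30 of the 53, replicate 3 for 20 and replicate 2 for 3. Over all genes, replicate 1 was the highest for 36.1% and replicate 2 the lowest for 50.6%. Replicate 2 was the lowest for 36 of the 53 P450 genes and replicate 3 for 14.
Single members parted in opposite ways. Cyp4a12b, higher in male mice, had 1018, 122 and 29 counts in replicates 1 to 3, which is 14.7, 10.3 and 0.672 RPKM. Cyp7b1 and Cyp2c29 were also highest in replicate 1, with 248 and 442 RPKM, and lowest in replicate 3, with 36.1 and 71.9 RPKM. Among the members with the widest ratios, Cyp3a44, higher in female mice, had 13, 0 and 352 counts, and Cyp17a1, the hydroxylase and lyase of androgen synthesis, was also highest in replicate 3. Of the 6 female-higher genes tested, 3 were highest in replicate 1 and 3 in replicate 3, and all 6 were lowest in replicate 2. The minimum of 50 counts was not applied to these 6. Replicate 2 had 0, 1, 1 and 2 counts for Cyp3a44, Cyp2b9, Cyp2a4 and Cyp39a1, under its floor of 3 counts (0.605 CPM), so that their ranks are not firm. All 4 male-higher genes were highest in replicate 1, and 3 were lowest in replicate 3 and Cyp2d9 in replicate 2. Whether the lists differ in this was not tested. Neither Cyp3a44 nor Cyp17a1 was called between the groups, and without siAATF replicate 3 the log2 fold change of Cyp17a1 went from 2.35 to 0.26 and that of Cyp3a44 from 4.38 to -0.10. Other genes went along with replicate 3, where the male-higher steroid dehydrogenase Hsd3b5 had 131 counts against 12075 and 769, A1bg had 133 against 4 and 0, and the metallothionein Mt1 had 9442 CPM against 57.6 and 1045 CPM. The part of the acute-phase and other differences of this library in the P450 values was not tested.

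**Figure D5:**
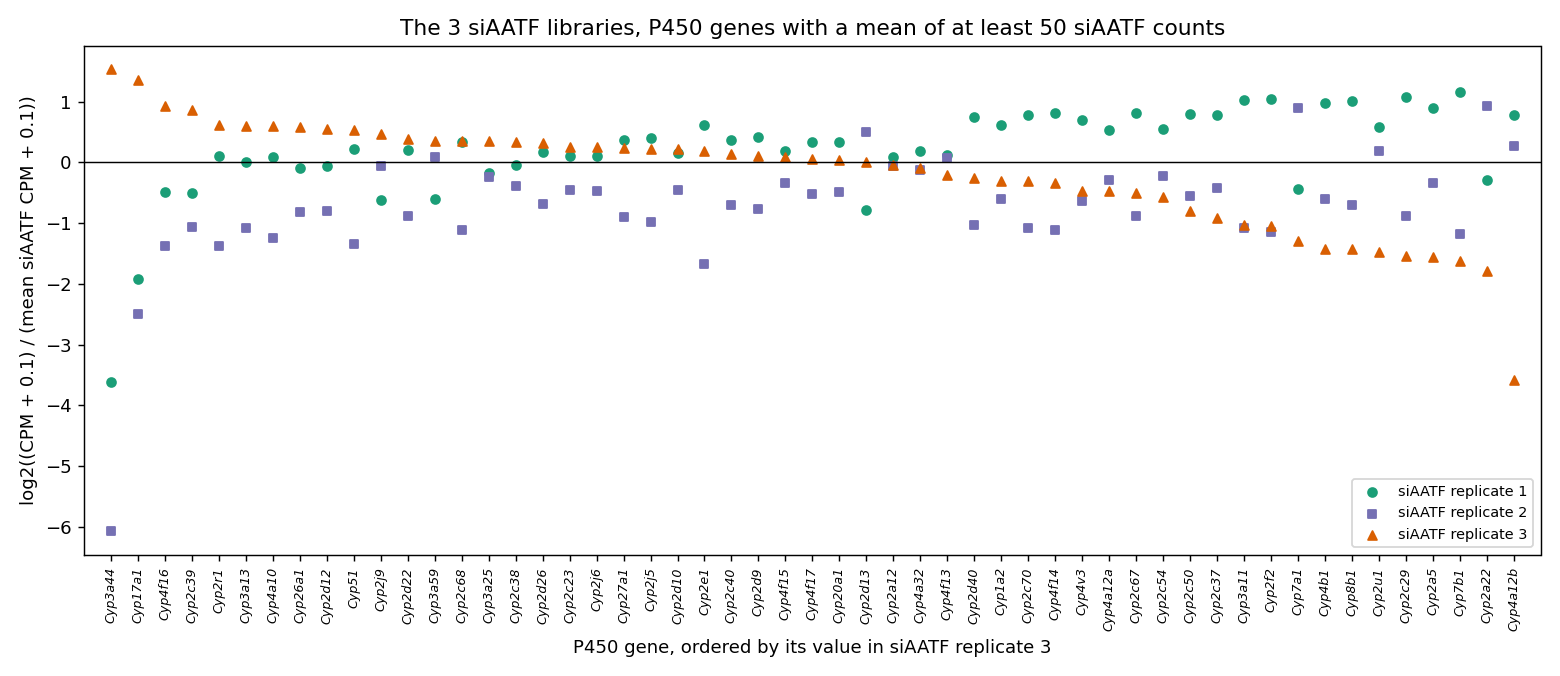
Level of each of the 53 P450 genes with a mean of at least 50 siAATF counts in the 3 siAATF libraries, as log2 of (CPM + 0.1) over the mean of the 3 (+ 0.1), ordered by replicate 3. Replicate 2 is the lowest for most genes, and Cyp3a44 and Cyp4a12b mark the ends at which replicate 3 parts from the others.

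Partners of the P450s were compared as well. The list of electron donors and haem genes had 12 of 17 called higher and 1 lower (32.0% of all genes were called), at a median of 2.28 on the log2 scale. Beside these 13 calls, 5 genes of the list were called in either direction when scaled by hepatocyte markers and 6 when scaled by library size alone. Of all 18018 genes, 10485 and 8023 were called in these settings, 1.48% and 9.31% of them higher. Por, the oxidoreductase that serves the enzymes of the endoplasmic reticulum, had 93.9, 58.0 and 53.0 CPM in siControl and 152, 67.2 and 267 CPM in siAATF and was not called (log2 fold change 1.24, SE 0.51, edgeR adjusted p = 0.0848). The mitochondrial donors Fdx1 and Fdxr rose by 3.07 (SE 0.64) and 3.03 (SE 0.45), and cytochrome b5 (Cyb5a) rose by 3.39 (SE 0.69), all on the log2 scale. Alas1, the first enzyme of haem synthesis, had 90.7, 16.9 and 21.2 CPM against 257, 156 and 274 CPM (log2 fold change 2.37, SE 0.61, edgeR adjusted p = 0.00975), and Cpox had the largest rise of the list, 4.13 (SE 0.61). Hmox1, which breaks haem down and is high in macrophages, was the gene called lower, at 211, 169 and 123 CPM against 13.7, 3.63 and 24.6 CPM (log2 fold change -3.56, SE 0.61, edgeR adjusted p = 0.000812).
Of 20 genes for transcription factors that act on P450 genes, 19 were tested, 12 were called higher and 1, the vitamin D receptor Vdr, lower, beside 17.6% and 14.4% of all genes. Their median log2 fold change was 2.33. In either direction, 6 of them were called when scaled by hepatocyte markers and 8 when scaled by library size alone. These counts stand beside 10485 and 8023 of all 18018 genes. The xenobiotic receptor Nr1i3 (CAR) had 0, 0 and 1 siControl counts and 270, 36 and 218 siAATF counts (log2 fold change 5.02, SE 0.90), and its relative Nr1i2 (PXR) had 7.23, 12.1 and 6.69 CPM against 49.4, 49.8 and 77.3 CPM (log2 fold change 2.88, SE 0.43). Ppara rose most, from 4.01, 2.42 and 2.79 CPM to 64.3, 205 and 70.6 CPM (log2 fold change 5.14, SE 0.64, edgeR adjusted p = 0.000112). Hnf4a, the gene of HNF4A, had 73.9, 26.6 and 21.2 CPM against 316, 365 and 509 CPM (log2 fold change 3.27, SE 0.57, edgeR adjusted p = 0.000895). Ahr, Arnt, Stat5b, Bcl6 and Cux2 were among those not called. For the bile acid enzymes, both the receptor Nr1h4 (FXR, log2 fold change 2.92, SE 0.58) and the repressor Nr0b2 (SHP, 3.40, SE 0.53) were called higher.

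Several P450 genes are near copies of each other, and the authors discarded reads that map to more than one place. Of the 71 members, 32 shared no stretch of 100 bases with another gene's transcripts, 10 shared over 10% of such stretches and none over 50%. The largest parts were 36.2% for Cyp4a12b and 30.6% for Cyp4a12a, which share them with each other, and 32.8% for Cyp2c40, which shares them with Cyp2c68. The others over 10% were Cyp2c67 (20.8%), Cyp2c68 (19.5%), Cyp2a5 (16.2%), Cyp2a4 (14.7%), Cyp4a10 (14.2%), Cyp4a32 (13.9%) and Cyp2d11 (12.2%). Counts of all 10 genes are therefore uncertain.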

How the data were processed

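Gene counts of 3 siControl and 3 siAATF libraries were analysed. The authors made SMART-Seq libraries, trimmed the reads (Cutadapt) and placed them by STAR on a joined human and mouse genome, and discarded reads placed more than once or in both species. They counted the rest with featureCounts on GRCm39 and deposited raw counts, without normalization or filter. The submitters' processing notes name STAR 2.7.11, featureCounts 2.0.1, DESeq2 1.42.0 and R 4.3.2. Whether counting used the strand is not given in the sources used here. The human table was used for totals alone. Results for 1 regulator are not reported here.

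Identifiers were named from GENCODE release 39 (56323 of 56884 mouse genes matched), and the gene length is the deposited one. Members and gene lists were chosen with earlier results of these data known. All mouse genes of 10 or more counts in total were tested with edgeR's quasi-likelihood test (edgeR 4.0.16, R 4.3.3), TMM scaling, group as the only term and Benjamini-Hochberg adjustment over 18018 genes. A gene was called at an adjusted p under 0.05. RPKM was computed from TMM-scaled counts. Shares were compared by exact permutation. Reads of 1 molecule can be PCR copies, so intervals and floors of 3 counts cover counting error alone. The edgeR test was also run on simulated counts.

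Named members are the 10 highest per group by RPKM, the 10 largest called rises and falls without overlap and with 50 counts or more on average, list members, members of families 7, 8, 17, 24, 26, 27, 39, 46 and 51, the 5 with the widest siAATF ratio and the highest of each subfamily. Other members named, among them Cyp1a1, Cyp4a10, Cyp4a14, Cyp4a32, Cyp4f13, Cyp4f15, Cyp4f17, Cyp2c55, Cyp2c68, Cyp2j6, Cyp3a13 and Cyp2d11, were named after their values were seen. Alternatives were RLE, upper-quartile and library-size scaling, DESeq2 1.42.0, limma-voom (limma 3.58.1), other filters, thinning, the replicate block and leaving out each replicate. Scaling by hepatocyte markers, with and without Hpx and Fgb, and leaving out both replicates numbered 2 were chosen after seeing the data. Promoters were read from GRCm39 at GENCODE starts, and figures were drawn with matplotlib 3.10.9 (Python 3.11.15).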

Additional observations from a re-analysis of the deposited data

How the results depend on the processing

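Of 888 values of 51 named genes under other settings, 755 kept direction and side of the threshold, 66 lost the call, 28 gained one and 39 changed sign. DESeq2 called 44 P450 genes higher and 4 lower, RLE and upper-quartile scaling gave the same counts, and limma-voom gave 43 and 3 with a median log2 fold change of 3.11. Scaling by library size alone gave 35 higher and 5 lower, and a median log2 fold change of the P450 genes of 2.85 (-1.30 over all genes). It called 6 redox and haem genes and 8 regulators, and 8023 of all 18018 genes. Over all genes it moved the share of higher calls among the called from 55.0% to 9.31%. With at least 10 counts in every library, 5 members were tested, 2 were higher and 2 lower, and the median was 1.09. Of all genes in that setting 1745 of 3552 were called, as were 7 redox and haem genes and 3 regulators. Thinned to 213022 counts a library, edgeR called 0 P450 genes higher, 0 lower, 0 partners and 0 regulators (45 members tested, median 2.95), and no gene of the table (smallest adjusted p 0.0743), while 14 members were higher and 3 lower at an unadjusted p under 0.05. This setting cuts the counts of every library but siControl replicate 2 and leaves fewer genes to test (11160). Scaling by hepatocyte markers gave 16 higher, 8 lower, a median of 1.44, 5 redox and haem genes and 6 regulators. Without Hpx and Fgb it gave 12 higher, 10 lower, 0.76 and 7 regulators. Of all 18018 genes, 10485 and 12214 were called in these settings, 1.48% and 0.843% of them higher.

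Leaving out 1 library at a time gave 41 to 48 members called higher, 3 lower throughout, a median of 4.14 to 5.92, 11 to 15 partners, 11 to 14 regulators, a share ratio of 3.71 to 9.17 and a ratio per marker count of 1.46 to 2.40. Replicate numbers are shared by the groups, but same-numbered libraries did not deviate together (r of 0.110, 0.154 and -0.0237 across genes), and with the replicate block 48 members were called higher and 4 lower. Signs turned as follows, and the cause was not tested. By library size alone: Cyp51 -0.60, Cyp4b1 -1.15, Cyp2t4 -1.23 and Cyp46a1 -1.07. By limma-voom: Cyp2b9 -0.58, Cyp2t4 -1.26 and Cyp46a1 -0.095. After thinning: Cyp51 -1.55. By hepatocyte markers, and then without Hpx and Fgb: Cyp27a1 -0.29 and -0.95, Cyp4b1 -2.53 and -3.29, Cyp51 -2.74 and -3.40, Cyp3a44 -0.39 and -0.40, Cyp2a4 -1.08 and -1.72, Cyp2t4 -2.35 and -2.97, Cyp4v3 -0.28 and -1.02, Cyp46a1 -3.01 and -3.73, and Cyp17a1 -1.80 and -2.06. Without Hpx and Fgb alone: Cyp7b1 -0.43, Cyp2a22 -0.42, Cyp2r1 -0.0081 and Cyp26a1 -0.15. Leaving out 1 library at a time gave, from lowest to highest, -0.54 to 2.65 for Cyp4b1, -0.10 to 9.23 for Cyp3a44, -0.999 to 0.66 for Cyp26b1, -2.10 to 5.92 for Cyp2s1, -0.039 to 5.31 for Cyp2t4 and -0.16 to 6.14 for Cyp46a1, and without both replicates numbered 2 Cyp2t4 was at -0.31.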

Other observations

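Besides the 71 members, 36 Cyp genes of other types (pseudogenes and non-coding genes) are in the mouse table, and 7 of them had at least 10 counts. Cyp3a61-ps1 had 223, 8 and 2 counts in siAATF replicates 1 to 3 and none in siControl. Cyp2d36-ps had 26, 54 and 77 counts in siAATF and none in siControl, and Cyp2d41-ps had 53, 9 and 30 counts in siAATF and 1, 0 and 0 in siControl. Scaled by TMM, the siAATF libraries had 7.70, 1.61 and 0.111 CPM for Cyp3a61-ps1 and 0.897, 10.9 and 4.27 CPM for Cyp2d36-ps, so that the highest was replicate 1 for the former and replicate 2 for the latter.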
